A study of Homo sapiens with 4 samples.

Results

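Tropomyosins are rod-shaped proteins that pair into coiled coils and lie end to end along actin filaments. The 4 human tropomyosin genes, TPM1, TPM2, TPM3 and TPM4, were followed in K562, an established line of chronic myelogenous leukaemia cells that carries erythroid traits and is labelled as bone marrow. All 4 are listed among the 11213 gene names of a deposited RNA-seq table, with 24 of its 32551 transcripts: TPM1 (ENSG00000140416, chromosome 15), TPM2 (ENSG00000198467, chromosome 9), TPM3 (ENSG00000143549, chromosome 1) and TPM4 (ENSG00000167460, chromosome 19). The members were taken by gene name, and the family was selected on its levels in these same shControl and shPHF8 libraries, so its differences between the groups are given as a description with no test. To keep names and units apart, TPM followed by a digit is a gene, and TPM alone is the unit, the abundance of a transcript corrected for its length, on a scale whose total is equal in all libraries.

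The study compared 2 libraries labelled shControl with 2 labelled shPHF8 and, by its title, asked how PHF8 bears on transcription of the BCR-ABL1 fusion gene. PHF8 is a histone demethylase. Cells of both groups were transduced with lentivirus carrying a short hairpin and selected with puromycin; the control is labelled WT and the other group PHF8 knockdown. All 4 libraries come from 1 established line, and it is not clear from their names if 1 and 2 stand for cultures or for hairpins, so any p-value measures only the spread between these libraries, which may be technical. Each column of the table sums to 1000000 TPM, and the number of reads is unknown. In a bulk sample, fewer cells of a type and less RNA per cell cannot be told apart.

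PHF8, the targeted gene, was at 25.9 and 22.5 TPM in shControl 1 and 2 and at 6.06 and 6.42 TPM in shPHF8 1 and 2. Its mean in the knockdown was 25.8% of the control mean, a log2 difference of -1.80 ± 0.16 (standard error, n = 2 per group; limma, Benjamini-Hochberg adjusted p = 0.0643). All 12 markers of K562's erythroid identity were in the table, with a summed level of 9295 and 9913 TPM in the controls and 14327 and 13681 TPM in the knockdowns. The 4 globins listed make up most of this sum. Of the 12, 8 were higher in both knockdowns (among them the 4 globins and TFRC), 3 were lower in both (GATA1, GYPC and NFE2) and EPOR overlapped. Over all 10972 genes tested, 26.0% were higher and 29.3% lower in both knockdowns than in both controls. Markers of other cells that make tropomyosin were few. Of 10 muscle markers only DES and NEB were listed, with 10.0 to 14.1 TPM in sum over the libraries. Of 10 stromal markers 2 were listed, with sums of 9.88 and 13.0 TPM in the controls and 3.42 and 2.52 TPM in the knockdowns, and 0 of 6 endothelial markers were listed. Of 8 megakaryocyte and platelet markers 4 were listed, and their sum was higher in both knockdowns (up to 52.3 TPM) than in both controls (up to 27.3 TPM). Most of that gap is TUBB1, at most 13.2 TPM in the controls and at least 34.9 TPM in the knockdowns; ITGA2B was also higher in both, ITGB3 overlapped and PPBP was at most 0.340 TPM. Of 10 granulocyte and monocyte markers 5 were listed, and their sum was lower in the knockdowns (84.3 and 81.4 TPM) than in the controls (150 and 171 TPM); MPO, ELANE, CD14, CSF1R and FCGR3A were not listed. The part of these marker shifts in the tropomyosin values was not tested.

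Tropomyosin decides which other proteins reach the actin filament: depending on the isoform it slows severing by cofilin, limits branching and sets how myosin engages. Each gene makes several proteins by using alternative promoters and by alternative splicing. An upstream promoter and first exon give the long forms typical of muscle and fibroblasts, and an internal first exon gives the shorter forms found in most other cells. In red cells, short tropomyosins made from TPM1 and TPM3 lie on the short actin filaments of the membrane skeleton. TPM4 products are known in platelets and in their parent cell, the megakaryocyte.

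The transcripts below are described by the first exon they use, so the first coding exons are shown here. They run from the transcripts' start codon on, as given by GENCODE release 29 on GRCh38. The deposited files use hg19, and transcripts were matched by identifier, 23 of 24, with no coordinate carried over. Capitals mark bases that are the same in every sequence of a set. The first set is the upstream kind, from TPM4 and TPM2, with 98 of 114 positions the same.
TPM4-001: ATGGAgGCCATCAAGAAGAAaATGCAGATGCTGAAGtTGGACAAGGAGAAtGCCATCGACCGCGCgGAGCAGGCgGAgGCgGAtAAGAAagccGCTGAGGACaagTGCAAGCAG
TPM2-001: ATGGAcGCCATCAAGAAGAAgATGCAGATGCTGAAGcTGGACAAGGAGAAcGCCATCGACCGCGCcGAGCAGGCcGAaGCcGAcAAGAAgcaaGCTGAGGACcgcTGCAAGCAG

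The second set is the internal kind, from TPM4, TPM3 and TPM1, with 75 of 132 positions the same.
TPM4-002: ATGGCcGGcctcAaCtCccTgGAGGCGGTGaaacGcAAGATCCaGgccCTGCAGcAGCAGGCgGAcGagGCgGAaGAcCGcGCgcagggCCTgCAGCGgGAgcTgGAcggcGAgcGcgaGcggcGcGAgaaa
TPM3-004: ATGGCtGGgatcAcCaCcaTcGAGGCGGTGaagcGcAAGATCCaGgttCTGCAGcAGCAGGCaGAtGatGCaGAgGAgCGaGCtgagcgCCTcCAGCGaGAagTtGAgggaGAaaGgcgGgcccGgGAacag
TPM1-012: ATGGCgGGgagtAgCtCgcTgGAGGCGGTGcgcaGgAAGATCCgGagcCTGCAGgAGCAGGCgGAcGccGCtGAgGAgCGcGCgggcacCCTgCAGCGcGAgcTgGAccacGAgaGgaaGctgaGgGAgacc

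The upstream exons shown were closer to each other than the internal ones. TPM4-001 and TPM2-001 were identical at 86.0% of positions. Among the internal exons, TPM4-002 matched TPM1-012 at 72.0% and TPM3-004 at 70.5% of positions, and TPM3-004 matched TPM1-012 at 62.9%. Further downstream the forms of 1 gene share their exons: TPM4-001 (852 coding bases) and TPM4-002 (744 coding bases) have 612 coding bases at the 3′ end in common, and 240 and 132 bases of their own.

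TPM4 was the tropomyosin gene that stood apart between the groups. Its level was 212 and 175 TPM in shControl 1 and 2 and 29.8 and 32.2 TPM in shPHF8 1 and 2. Both knockdown libraries were far below both controls, and the members of each group lay close to each other. The means were 193 ± 26.1 TPM and 31.0 ± 1.69 TPM (SD, n = 2 per group), so the knockdown mean was 16.0% of the control mean, a 6.24-fold lower level. On the log2(TPM + 1) scale the difference was -2.60 ± 0.13 (standard error). Among the 10972 genes that reached a mean level of 1 TPM, TPM4 ranked 17 from the most lowered, and its place by level went from 848 in the control to 5274 in the knockdown. PHF8 itself, the target of the hairpin, had a smaller difference on this scale.

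TPM3, the other abundant member and a component of both red cell and general cytoskeletal filaments, did not follow. It was at 177 and 137 TPM in the controls and 155 and 174 TPM in the knockdowns. The groups overlapped, with both knockdown libraries between the control libraries. The means were 157 ± 28.2 and 165 ± 14.0 TPM, with a log2 difference of 0.07 ± 0.15.

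TPM1, which gives muscle tropomyosin from one promoter and short forms from another, was at 30.0 and 19.7 TPM in the controls and 30.5 and 21.4 TPM in the knockdowns. The libraries numbered 1 had the higher value in both groups, and the groups overlapped. The log2 difference was 0.07 ± 0.29. TPM2, best known from slow muscle and smooth muscle, was the lowest member, at 6.76 and 15.3 TPM in the controls and 6.67 and 8.58 TPM in the knockdowns. Its groups overlapped too, shControl 2 was the highest library, and the log2 difference was -0.39 ± 0.42. Without shControl 2 the difference of TPM2 turned to 0.14, and the differences of TPM1 and TPM3 also changed sign when single libraries were left out.

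**Figure D1:**
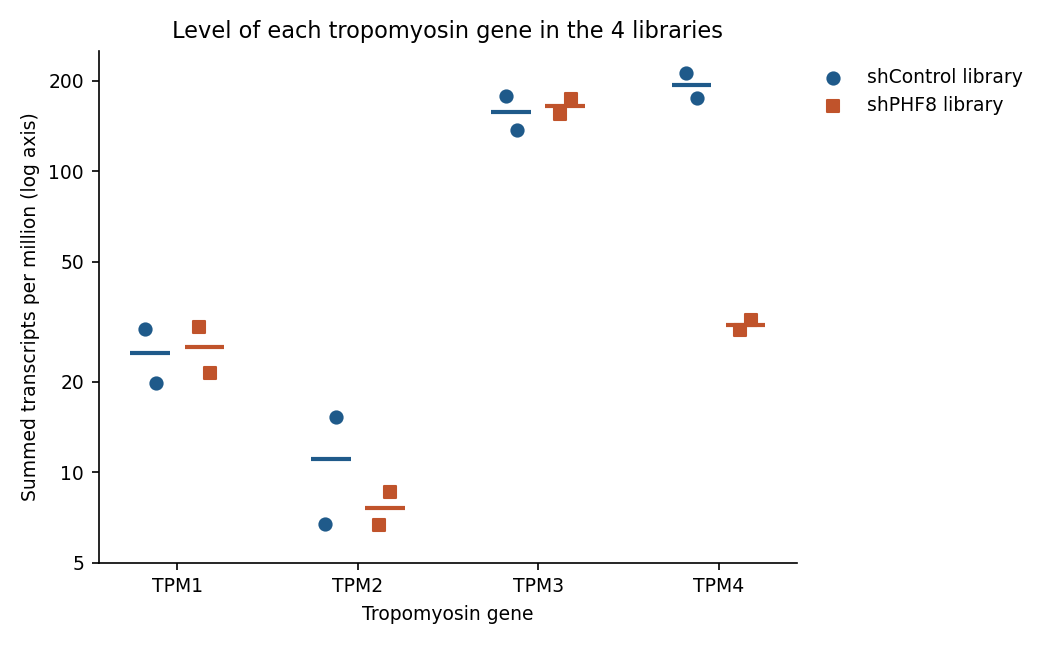
Level of each tropomyosin gene (TPM, log axis) in the 2 shControl and 2 shPHF8 libraries, 1 point per library with a line at each group's mean. TPM4 lies between 175 and 212 TPM in the controls and between 29.8 and 32.2 TPM in the knockdowns, while the groups of the other genes overlap.

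Across all genes tested, 55.3% had groups that did not overlap, 29.3% with the knockdown lower and 26.0% with it higher; among the members it was 1 of 4. These values chose the family, and nothing is read from the count. With limma and Benjamini-Hochberg adjustment over the 10972 genes, 0 were called at an adjusted p under 0.05 (smallest adjusted p = 0.0554), while 2414 genes, or 22.0%, had an unadjusted p under 0.05, 1086 of them higher in the knockdown and 1328 lower. Quantile normalization gave 17 adjusted calls higher and 20 lower, and taking each gene as its most abundant transcript gave 10 and 11. The median log2 difference over all genes was -0.02.

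The summed level of the 4 genes was 426 and 347 TPM in the controls and 222 and 237 TPM in the knockdowns, and the knockdown mean was 59.3% of the control mean. The share of TPM4 in this pool was nearly the same within each group. It made up 49.7% and 50.3% of it in the controls and 13.4% and 13.6% in the knockdowns. TPM3 made up 41.6% and 39.6% in the controls and 69.8% and 73.7% in the knockdowns. TPM1 held 7.04% and 5.69%, then 13.8% and 9.06%, and TPM2 between 1.59% and 4.41% in any library. A larger share is not a larger level here: without TPM4, the other genes summed to 214 and 172 TPM in the controls and 192 and 205 TPM in the knockdowns, with overlap. In the controls the order by level was TPM4, TPM3, TPM1, TPM2, though the ranges of TPM4 and TPM3 overlapped; within each control library TPM4 was 1.19 and 1.27 times TPM3. In the knockdowns TPM3 came first and the ranges of TPM4 and TPM1 overlapped, with TPM1 above TPM4 in shPHF8 1. The ratio of TPM4 to TPM3 was 0.192 and 0.184 in the knockdown libraries.

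**Figure D2:**
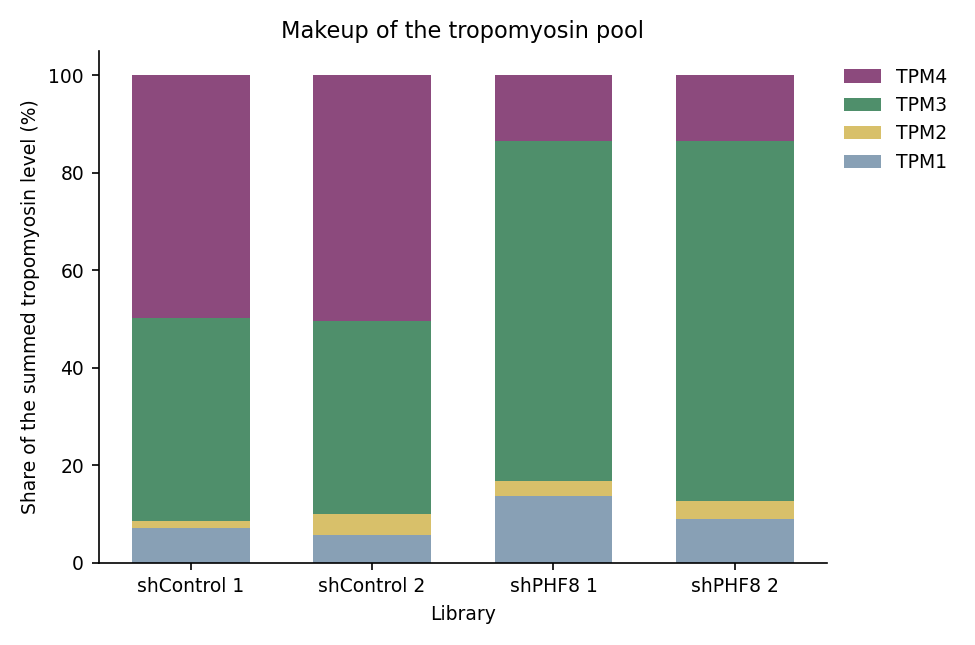
Share of the summed tropomyosin level (percent) held by each gene in each library, stacked to 100%. TPM4 holds 49.7% and 50.3% in the controls and 13.4% and 13.6% in the knockdowns, and TPM3 holds the largest share in the knockdowns.

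The transcripts of TPM4 add detail to its low level and also a difference between the controls. TPM4-002, with the internal first exon and 248 codons, was at 87.7 and 161 TPM in the controls and 26.0 and 27.3 TPM in the knockdowns. TPM4-001, with the upstream first exon and 284 codons, was at 111 and 1.45 TPM in the controls and 0 and 1.11 TPM in the knockdowns. The long form was thus 52.5% of TPM4 in shControl 1 and 0.829% in shControl 2, and it was abundant in shControl 1 only. In the knockdowns it was listed at 0% and at 3.44% of the gene.

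The sum of both forms differed far less between the controls than either form did. They end in the same last coding exon, and summed over it they were at 199 and 163 TPM in the controls and 26.0 and 28.4 TPM in the knockdowns. The low level in the knockdowns was also present in TPM4-002 alone, whose groups did not overlap. In shControl 2, where the long form was nearly absent, the gene was still at 175 TPM.

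Of the other TPM4 transcripts, TPM4-014 was at 5.42 and 3.40 TPM in the controls and 1.50 and 0.168 TPM in the knockdowns, and TPM4-015 at 4.90 and 5.76 against 1.39 and 0.557 TPM. TPM4-019, the transcript without a match in GENCODE 29, was at 1.88 and 1.48 against 0.833 and 0.694 TPM. TPM4-012 was at 0.747 and 1.37 against 0 and 2.37 TPM and overlapped. The annotation marks TPM4-012, TPM4-014 and TPM4-015 as incomplete at the 3′ end. So 5 of the 6 TPM4 transcripts, including both complete forms, stood lower in both knockdown libraries than in both controls. For TPM4-001 the groups were kept apart only by 1.45 TPM in shControl 2 against 1.11 TPM in shPHF8 2. Of all 30266 transcripts with a mean of at least 1 TPM, 43.2% had groups that did not overlap, 22.2% with the knockdown lower; of the 22 tropomyosin transcripts that passed this minimum, 9 stood lower, 1 higher and 12 overlapped.

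**Figure D3:**
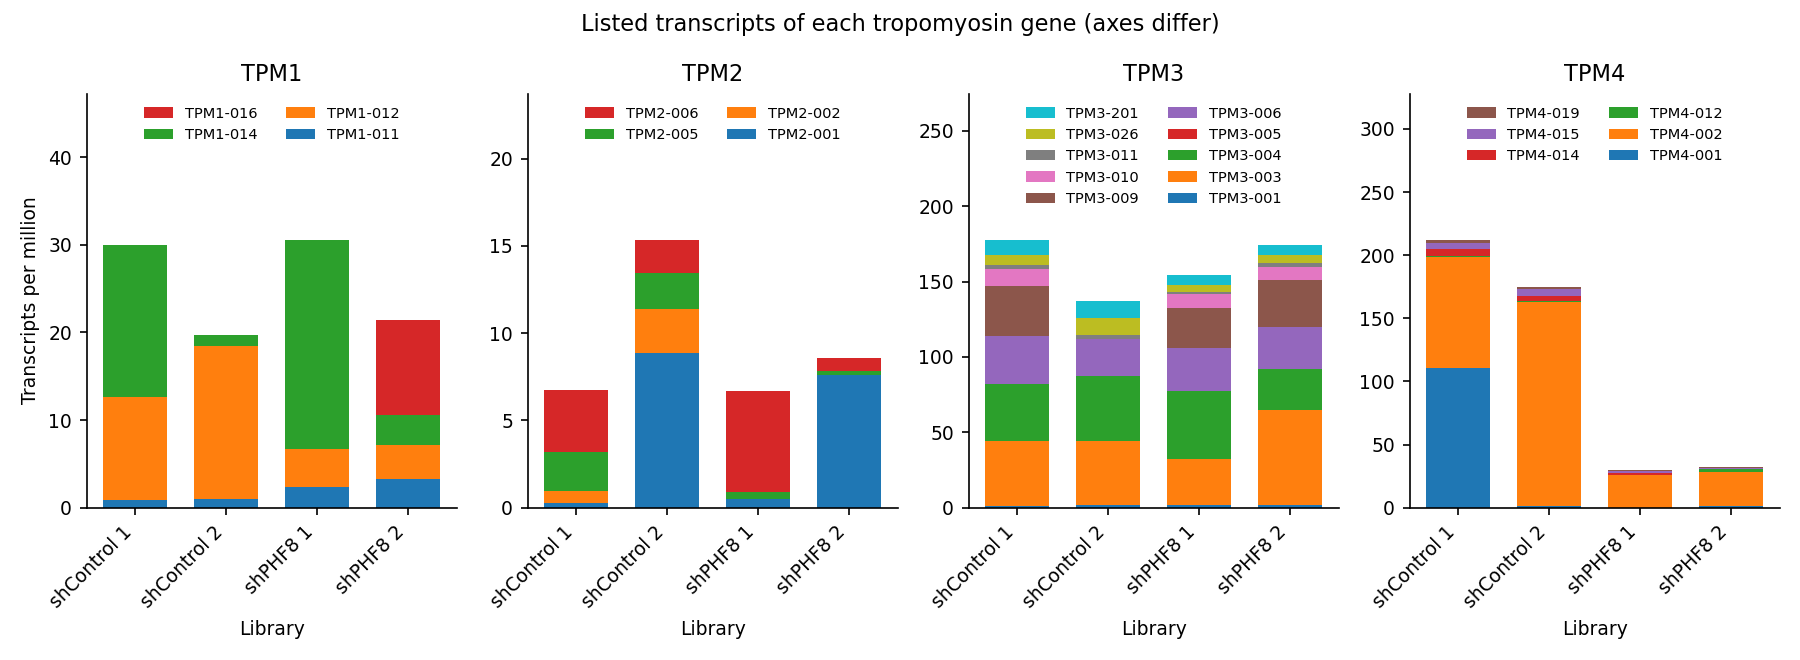
Level of each listed transcript in the 4 libraries, in TPM, stacked to the gene's level, with 1 panel per gene and axes that differ between panels. TPM4-001 is high in shControl 1 alone, at 111 TPM, whereas TPM4-002 is lower in both knockdown libraries than in both controls.

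The start sites of the 2 TPM4 forms lie apart on the plus strand of chromosome 19, at position 16067507 for TPM4-001 and 16076306 for TPM4-002 in GENCODE 29 (GRCh38), each inside a promoter window that RefSeq gives on GRCh38.p14. TPM4-002 was lower in both knockdowns than in both controls. TPM4-001 was low in the knockdowns, at 0 and 1.11 TPM, but also in shControl 2, at 1.45 TPM. The genomic bases just upstream of each start site are shown. For TPM4-001 these are 219 bases at chr19:16067288-16067506. Capitals mark a CArG box, the motif to which serum response factor (SRF) binds, and a GC box (GGGCGG).
TPM4-001: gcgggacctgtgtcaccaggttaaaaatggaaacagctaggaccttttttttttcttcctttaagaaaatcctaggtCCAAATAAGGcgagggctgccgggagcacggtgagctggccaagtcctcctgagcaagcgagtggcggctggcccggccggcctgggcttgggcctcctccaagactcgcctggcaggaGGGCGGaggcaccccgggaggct

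For TPM4-002 the 61 bases at chr19:16076245-16076305 held neither motif.
TPM4-002: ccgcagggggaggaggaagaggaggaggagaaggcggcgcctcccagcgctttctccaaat

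A set of 5 motifs was searched on both strands in 34943 RefSeq promoter windows of 300 bases. The CArG box was found in 1.30% of all windows and, among the 8 windows of the tropomyosin genes, only in the upstream window of TPM4. These windows covered no upstream start of TPM1 or TPM3, and those of TPM2 overlap each other. The motif was therefore not searched at the upstream promoters of TPM1 and TPM3. GGGCGG was found in 44.9% of all windows and in all 8 tropomyosin windows. TGACGT, the core of a cyclic AMP response element, was found in 7.97% of all windows, with 2 matches in the window of TPM4-002 beyond the stretch shown and 1 in the main internal window of TPM3. The TATA motif TATAAA was in 11.6% of all windows and in 0 of these 8. The motif CCAAT was in 34.6% of all windows and likewise in 0 of these 8. The tropomyosin windows held from 1 to 39 CG dinucleotides against a median of 14 over all windows; the upstream window of TPM4 had 12 and its internal window 35. These matches describe letters and not binding.

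The listed TPM1 transcripts all begin with the internal first exon. TPM1-014, of 275 codons, was at 17.3 and 1.34 TPM in the controls and 23.8 and 3.40 TPM in the knockdowns, so it was high in the libraries numbered 1 and low in those numbered 2. TPM1-012 was at 11.8 and 17.5 against 4.28 and 3.90 TPM, lower in both knockdown libraries. TPM1-011 was the 1 tropomyosin transcript that stood higher in both, at 0.843 and 0.941 against 2.39 and 3.27 TPM. TPM1-016 was listed at 0 in 3 libraries and at 10.9 TPM in shPHF8 2. The level of TPM1 as a gene, whose groups overlapped, thus sums transcripts with different patterns. TPM1-012 was lower and TPM1-011 higher in both knockdowns, while TPM1-014 and TPM1-016 overlapped.

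All 4 TPM2 transcripts carry the upstream first exon and encode 284 codons. TPM2-001 was at 0.287 and 8.85 TPM in the controls and 0.482 and 7.62 TPM in the knockdowns, high in the libraries numbered 2, and TPM2-006 was at 3.54 and 1.87 against 5.78 and 0.726 TPM. TPM2-005 was at 2.26 and 2.03 against 0.414 and 0.227 TPM, and TPM2-002 was at 0.674 and 2.56 TPM and listed at 0 in both knockdowns. Which TPM2 transcript led thus differed within each group.

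TPM3 was spread over 10 transcripts, and the internal first exon accounted for 96.8% to 98.0% of its level in each library. TPM3-003 was at 42.8 and 42.6 against 30.7 and 63.0 TPM, TPM3-004 at 38.3 and 43.0 against 44.8 and 26.9 TPM, and TPM3-006 at 31.8 and 24.7 against 28.8 and 28.0 TPM. TPM3-009 was listed at 0 in shControl 2 and at 26.7 to 32.9 TPM in the other libraries, and TPM3-010 was also listed at 0 in that library alone. TPM3-026 and TPM3-201 stood lower in both knockdowns, at 6.39 and 11.2 against 4.71 and 4.87 TPM and at 9.82 and 11.7 against 6.59 and 7.05 TPM. The long form TPM3-001 was between 1.21 and 1.92 TPM throughout, TPM3-011 between 1.86 and 3.18 TPM, and TPM3-005 was listed at 0 in all 4 libraries.

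Over the family, the 13 transcripts with an internal first exon held 68.4% and 90.5% of the tropomyosin level in the controls and 93.7% and 92.2% in the knockdowns. The 6 with an upstream first exon held 28.0% and 5.35%, then 3.76% and 4.90%. The high value of shControl 1 is TPM4-001, and the other 3 libraries lay close together.

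The distance between isoform make-ups was measured as the percentage points of a gene's level that would have to pass from some transcripts to others to turn one make-up into the other. Between the 2 controls it was 52.3 percentage points for TPM4, 51.1 for TPM1, 60.3 for TPM2 and 25.1 for TPM3. The median was 11.9 over the 7637 genes with several transcripts and at least 1 TPM in every library. Those genes were not matched to the members by level or number of transcripts. Of those genes, 9.90% were at least as far apart as TPM4. Between the 2 knockdowns it was 10.8 points for TPM4, near the median of 11.6, but 62.3 for TPM1, 81.7 for TPM2 and 17.7 for TPM3. The distance between the group means, 24.9 points for TPM4, was below that between its controls; it was 6.27 without shControl 1 and 50.7 without shControl 2. The most abundant transcript differed between the controls for all 4 genes and between the knockdowns for TPM1, TPM2 and TPM3; over the same 7637 genes it differed in 24.3% and 24.2%. The distance between the group means was 47.8 points for TPM1, 32.3 for TPM2 and 10.7 for TPM3, but means of 2 libraries vary less than single ones. Between single libraries of different groups, TPM1 was 25.3 to 74.4 points apart, TPM2 31.1 to 84.6, TPM3 8.44 to 27.8 and TPM4 6.43 to 52.8.

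**Figure D4:**
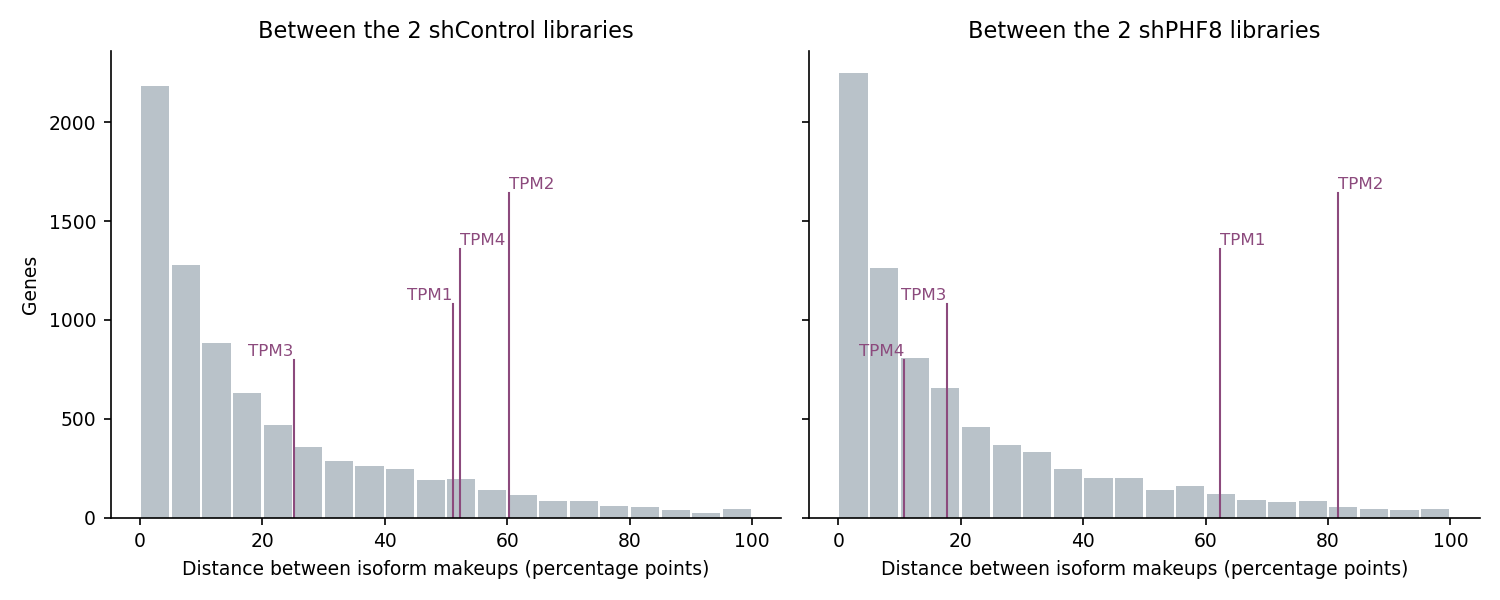
Number of genes (vertical axis) by the distance between isoform make-ups of the same gene in 2 libraries of 1 group (percentage points), left for the shControl and right for the shPHF8 libraries, with a line at each tropomyosin gene. Between the controls TPM1, TPM2 and TPM4 lie at 51.1, 60.3 and 52.3 points, beyond most genes, and between the knockdowns TPM4 lies at 10.8.

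The genes whose profile over the 4 libraries was most like that of TPM4, by Euclidean distance between log2(TPM + 1) values from which the control mean was subtracted, were MRM2, DBP, FCGR1B, AGER and FYB, at distances of 0.09 to 0.29. All 5 were less abundant than TPM4 in the controls, and this scale compresses low levels: by the means in TPM, MRM2 was 63.4-fold and AGER 15.1-fold lower in the knockdown, against 6.24-fold for TPM4. MRM2, a mitochondrial rRNA methyltransferase, was at 6.34 and 5.33 TPM in the controls and 0.0712 and 0.113 TPM in the knockdowns. FYB, an adaptor protein of T cells and platelets, was at 35.2 and 26.3 against 4.16 and 3.46 TPM. DBP was at 5.79 and 4.20 TPM and listed at 0 in both knockdowns. For TPM3 the most alike were TAB3, MCCC1 and HSPA9, for TPM1 they were BRD8, C4orf33 and MAEA, and for TPM2 they were IFIT3, ZNF264 and RELA; the groups of all these 9 genes overlapped.

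The genes that work with tropomyosin were taken as 9 lists with 126 entries, of which 92 were tested. At an unadjusted p under 0.05, 14 stood higher and 20 lower in the knockdown, or 37.0% against 22.0% of all genes. The lists were chosen with earlier results of these data known, so no excess is read from these shares. Of the 92, 0 passed the adjusted threshold (limma, Benjamini-Hochberg). The median log2 difference was -0.05, against -0.02 over all genes. The count of 14 was 7 without shPHF8 1 and 9 without shPHF8 2.

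Of the tropomodulins and other proteins on the side or end of the filament, 7 of 14 were tested; 1 stood higher and 2 lower at an unadjusted p under 0.05, with a median log2 difference of -0.26. TMOD1, which caps the slow-growing filament end by holding tropomyosin, was at 86.9 and 80.8 TPM in the controls and 119 and 119 TPM in the knockdowns, a log2 difference of 0.50 ± 0.08 (limma, Benjamini-Hochberg adjusted p = 0.0956). TMOD2, its relative best known in neurons, was at 10.4 and 9.94 against 6.73 and 7.45 TPM, and TAGLN2, an actin-binding transgelin, at 466 and 475 against 394 and 391 TPM. Of the troponins, which move tropomyosin on muscle filaments, 2 were listed. TNNI3 was at 50.6 and 49.5 against 17.6 and 28.5 TPM, lower in both knockdowns, and TNNT1 was at 154 and 107 against 93.9 and 131 TPM, with overlap. Of the actins, ACTB was at 134 and 88.3 against 158 and 99.5 TPM, with overlap. ACTG1 was at 649 and 469 against 398 and 448 TPM, without overlap but also without an unadjusted p under 0.05. These near-identical genes may share reads.

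Of 12 tested genes of non-muscle myosin II, the motor whose access to actin tropomyosin sets, 3 stood higher (MYH9, MYH10 and PPP1CB) and 3 lower (MYL12A, MYL12B and ROCK2) at an unadjusted p under 0.05, with a median log2 difference of 0.08. The light chain gene MYL12B was at 522 and 523 TPM in the controls and 301 and 316 TPM in the knockdowns (log2 difference -0.76 ± 0.06; limma, Benjamini-Hochberg adjusted p = 0.0560). MYL12A, its near-identical neighbour, with which it may share reads, was at 596 and 613 against 465 and 449 TPM. PPP1CB, the catalytic subunit of myosin phosphatase, was at 137 and 125 against 168 and 183 TPM. The heavy chain genes MYH9 and MYH10 and the light chain genes MYL12A and MYL12B thus stood on opposite sides of the control. The unadjusted p of PPP1CB was 0.0554 without shPHF8 2.

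Of 27 tested genes of actin assembly, branching and severing, 2 stood higher and 8 lower at an unadjusted p under 0.05, with a median log2 difference of -0.13. CAP1, which recycles actin monomers together with cofilin, was at 438 and 408 TPM in the controls and 220 and 225 TPM in the knockdowns (-0.92 ± 0.07; limma, Benjamini-Hochberg adjusted p = 0.0554). ARPC1A, a subunit of the branching Arp2/3 complex, was at 152 and 148 against 91.6 and 91.6 TPM, and ARPC1B and ARPC4 were also among the 8. TMSB4X, which holds actin monomers, was at 1641 and 1747 against 1261 and 1304 TPM. Of 13 tested cross-linkers and anchors 0 stood higher and 3 lower, with a median of -0.02. ZYX, a focal adhesion protein, was at 94.1 and 84.4 against 59.5 and 44.7 TPM. Its difference turned to 0.33 when each gene was taken as its most abundant transcript only. VCL, which links adhesions to actin, was at 165 and 155 against 105 and 134 TPM, and EZR, which ties actin to the membrane, at 240 and 243 against 216 and 208 TPM.

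The spectrin-actin junction of the red cell membrane, where short tropomyosin-coated filaments meet spectrin, had the most genes with higher values. Of 14 tested, 8 stood higher at an unadjusted p under 0.05 (among them SPTB, ANK1 and TMOD1) and 2 lower (SPTAN1 and SPTBN1), with a median log2 difference of 0.53. SPTB, the beta-spectrin of red cells, was at 52.3 and 49.1 TPM in the controls and 97.0 and 101 TPM in the knockdowns (0.95 ± 0.09; limma, Benjamini-Hochberg adjusted p = 0.0652). ANK1, which ties spectrin to the membrane, was at 100 and 108 against 186 and 172 TPM. SPTAN1 and SPTBN1 encode the spectrins of most other cells. The erythroid marker sum was also higher, with 8 of its 12 genes higher and 3 lower in both knockdowns. Over all genes tested, 26.0% stood higher and 29.3% lower in both. The part of the erythroid markers in the spectrin-actin values was not tested.

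SRF and its cofactors drive many actin-related genes, and their list also held known targets such as CYR61. Of its 5 tested genes, 1 stood higher and 0 lower at an unadjusted p under 0.05, with a median log2 difference of 0.05. The 1 higher gene was the target CYR61, not SRF or a cofactor. SRF was at 49.5 and 39.7 TPM in the controls and 47.1 and 44.9 TPM in the knockdowns, with overlap. MKL1, its actin-sensing cofactor, was at 16.4 and 11.1 against 9.06 and 9.23 TPM, FHL2, another cofactor, at most 25.9 TPM in the controls and 19.2 TPM in the knockdowns, and CYR61, a known SRF target, at 8.60 and 9.78 against 13.7 and 16.5 TPM. Of 11 tested splicing regulators known or thought to act on tropomyosin exons, SRSF1 stood lower at an unadjusted p under 0.05, at 304 and 295 against 265 and 248 TPM, and 0 stood higher; the median was -0.05. MBNL1 was at 191 and 168 against 293 and 213 TPM and KHSRP at 487 and 491 against 547 and 519 TPM. Among the partner genes named here, TMOD2, EZR, VCL and SRSF1 lost their unadjusted p under 0.05 in 10, 8, 6 and 6 of 13 alternative settings. TNNI3, ZYX and CYR61, the 1 gene of the SRF list with such a p, lost it in 2 each. For ANK1, TAGLN2 and PPP1CB it was lost in 1 each.

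**Figure D5:**
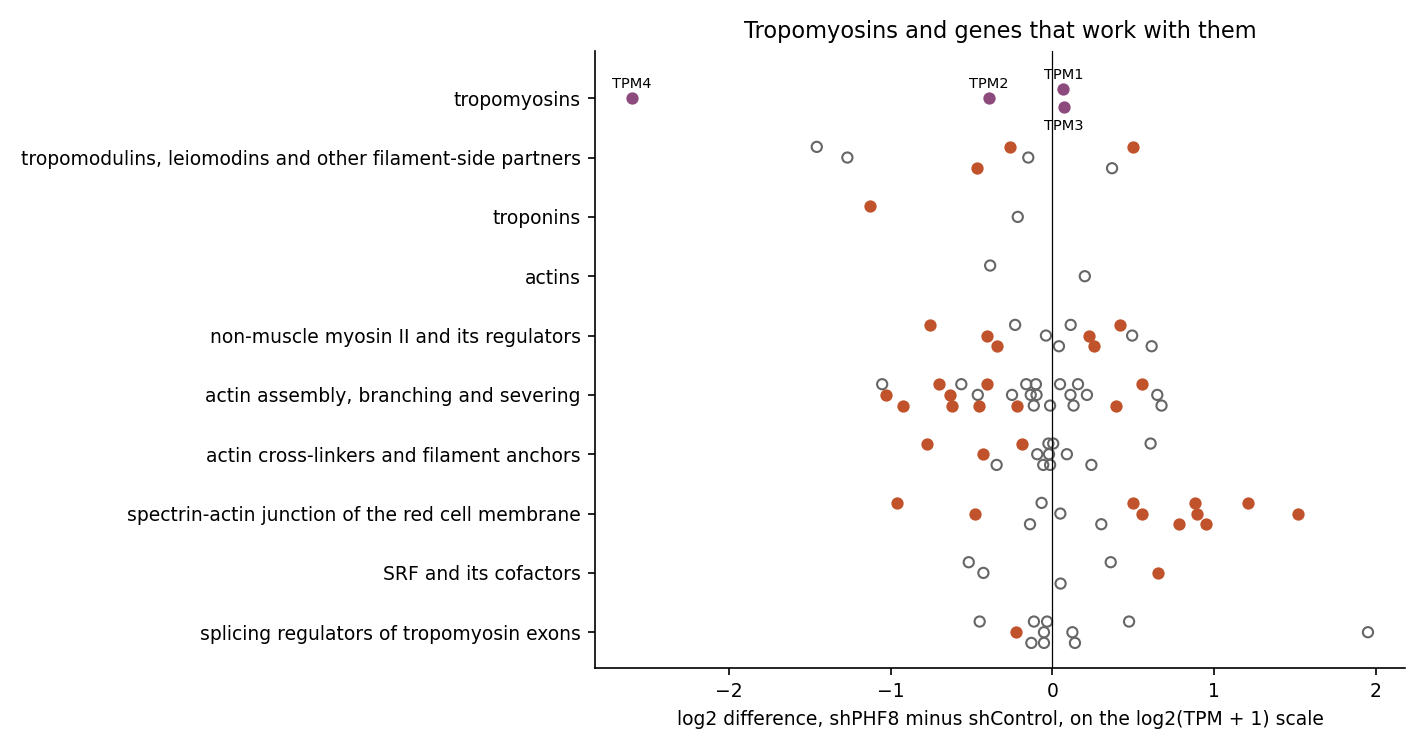
Knockdown minus control difference in log2(TPM + 1) for the 4 tropomyosin genes (purple, not tested) and each tested partner gene by list; filled orange points have an unadjusted limma p under 0.05 and open points do not, and the vertical offset only separates points. TPM4 lies at -2.60, lower than every partner gene, and the spectrin-actin junction has 8 filled points on the right.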

How the data were processed

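Total RNA of 4 K562 libraries was sequenced, 2 per group, grouped by the titles in the labels. The authors deposited 1 table of TPM per transcript; the submitters' processing notes name HISAT2 2.0.4, StringTie 1.2.3 and the build hg19. What each tool did, the annotation and the strandedness are not given in the sources at hand. The 4 further deposited columns, a signal without a stated unit, were exact multiples of the TPM and were not used. TPM keep no record of depth, so no counting error can be given.

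A gene's level is the sum over its transcripts, tested as log2(TPM + 1), a scale that understates the change of low genes. The 10972 genes that reached a mean of 1 TPM were fitted with limma 3.58.1 (empirical Bayes with trend, two-sided, R 4.3.3) and adjusted by Benjamini-Hochberg over all of them, with a threshold of 0.05; 241 genes were not tested. The fit had 2 residual degrees of freedom and 2.16 from the prior. The fit was also run on simulated data with the 10972 genes of this comparison. In each run 200 genes were changed, with normal noise at each gene's own observed spread. True log2 changes of 1, 2 and 3 were called in 24.8%, 56.7% and 69.8% of the changed genes. Of the other genes, 0.0418% were called. In the real data 22.0% of genes had an unadjusted limma p under 0.05 and 0 were called, so these rates may not hold there.

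The members and lists were chosen with earlier results of these data known. Named are the 4 genes with every listed transcript, PHF8, the 3 genes of each partner list with the smallest p, and the 5 genes most like TPM4 and 3 most like each other member; other genes are named to complete counts or beside a result and were chosen after their values were seen. Some named items are not reported here. Of all listed transcripts, 32312 were found in GENCODE 29 by identifier. That release is on GRCh38, not the build of the files, and served for exon structure and sequence; promoter windows are those of RefSeq on GRCh38.p14. Alternatives were a pseudocount of 0.1, no minimum or 5 TPM, 3 other scalings, no trend, the most abundant transcript only, a replicate block and leaving out each library. Python 3.11.15, pandas 2.3.3 and matplotlib 3.10.9 were used.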

Additional observations from a re-analysis of the deposited data

How the results depend on the processing

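TPM4 kept a lower level in the knockdown under all 10 alternatives run for it, though the replicate block among them cannot change a difference. Its log2 difference ranged from -2.73 to -2.46 when single libraries were left out. It was -2.12 when each gene was taken as its most abundant transcript only. Under that last setting TPM1 was at 0.67. Leaving out single libraries gave -0.22 to 0.36 for TPM1, -0.93 to 0.14 for TPM2 and -0.11 to 0.26 for TPM3. In the same way, isoform distances between the group means ran from 34.1 to 72.3 points for TPM1, 35.3 to 57.9 for TPM2, 4.99 to 22.8 for TPM3 and 6.27 to 50.7 for TPM4; that of TPM2 was 32.3 with all libraries and 22.1 over transcripts with a mean of 1 TPM or more. With adjusted p, 17 genes were called higher and 20 lower after quantile normalization, and 10 higher and 11 lower with the most abundant transcript only, against 0 otherwise. Genes higher at an unadjusted p under 0.05 ranged from 592 to 1118 without single libraries, with 646 and 592 without shPHF8 1 and 2. Partner genes higher ranged from 7 to 16 without single libraries and were 8 with the most abundant transcript only. Of 325 alternative values of the 25 named partner genes, 276 kept direction and side of the threshold. Another 38 kept direction but lost an unadjusted limma p under 0.05, 5 gained such a p and 6 reversed. The reversed ones were TNNT1 (0.048 without shControl 1 and 0.02 without shPHF8 1, in a range of -0.47 to 0.048), ACTB (-0.10 without shControl 2 and -0.13 without shPHF8 1, in a range of -0.13 to 0.53), and, with the most abundant transcript only, ZYX (0.33) and KHSRP (-0.0055). The cause was not tested. With the numbers 1 and 2 as a replicate block, the differences cannot change, since each number occurs in both groups. Those of TPM4 and PHF8 were thus -2.60 and -1.80 by design. Only the spread differs: 0 genes were called, and 888 genes were higher and 1061 lower at an unadjusted limma p under 0.05. Deviations of same-numbered libraries correlated at -0.03 over 10972 genes. A value over all genes cannot tell if these libraries shared a culture, day or hairpin that acts on some genes. The depth is unknown, and transcript levels depend on how reads common to several forms were divided.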
